A study of Mus musculus with 20 samples.

Results

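The sarcomere is the contractile unit of striated muscle. It is built from thick filaments of myosin, thin filaments of actin that carry the troponin complex, and proteins that anchor and span both. 10 genes of the cardiac sarcomere were examined here out of 37273 genes annotated on the mouse chromosomes, namely *Ttn*, *Myh6*, *Myh7*, *Myl2*, *Myl7*, *Tnnt2*, *Tnni3*, *Actc1*, *Mybpc3* and *Actn2*. They were chosen by name, with earlier results of these data known. Counts of members set beside a share of all genes are therefore a description. Each gene was given a window of its gene body plus 2 kb on either side in NCBIM37 (mm9) coordinates. All 10 were found in the annotation. The windows hold 495236 bases, of which 29.6% lie in exons and 62.3% in introns.

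The measured mark is 5-formylcytosine (5fC). TET enzymes oxidise 5-methylcytosine stepwise to 5-hydroxymethylcytosine and 5fC, and thymine DNA glycosylase (TDG) excises 5fC so that base excision repair can restore cytosine. Where TDG is missing, 5fC that would have been removed stays in the DNA, and peaks of 5fC then mark places where oxidation took place. In the midgestation heart the sarcomere genes are among the most strongly transcribed genes of the muscle cells, with *Myh7* and *Myl2* typical of the ventricle and *Myh6* and *Myl7* of the atrium.

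5fC was profiled by pull-down and sequencing in WT and *Tdg* null mouse tissues at E11.5. The *Tdg* null allele encodes no catalytic domain. The 4 WT and 4 *Tdg* null hindbrains came from litters A, O, Q and Z, with 1 embryo of each genotype per litter, and 2 hearts, 2 livers and 2 carcasses of each genotype came from 4 embryos of the litters pair a and pair b. Heart, liver and carcass of a pair therefore share their embryos and are not independent, and the 20 libraries come from 12 embryos. The *Tdg* null libraries that were used hold 101344 to 254319 peaks and the WT libraries 1563 to 42013. The *Tdg* null liver of pair b holds 228 peaks, stands apart from all others and was left out; it has no peak in any of the 10 windows, and the null liver is thus 1 library. The windows also hold parts of other genes, such as *Tnnt1* beside *Tnni3* and *Madd* beside *Mybpc3*. Gene models that overlap a member itself are *Ccdc63* (chr5:122558049-122588966, minus strand) over the 3′ part of *Myl2*, RP23-230H3.2 over *Actc1*, Gm13938 and Gm17428 within *Ttn* and *Myh7*, and 6030429G01Rik over the 5′ part of *Tnni3*. Peaks carry no strand, and where gene models overlap a peak cannot be given to either gene. RefSeq places starts of *Tnnt2* and *Myl2* upstream of the annotated ones and outside the windows. Only peak positions were used here, so that depth is not known from them, and neither genotype nor tissue was checked beyond the labels. Because libraries differ in how much of the genome their peaks cover, a ratio is given beside the covered share of a window, namely that share divided by the share of the whole genome covered in the same library.

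In the *Tdg* null heart the sarcomere windows were densely covered by 5fC peaks. The null heart of pair a had 154 peaks over 169469 bases, or 34.2% of the windows, which is 4.23 times the share of the genome covered in that library. The null heart of pair b had 112 peaks over 100210 bases, or 20.2%, at a ratio of 5.56. Each of the 4 null hindbrains had 30 to 38 peaks over 2.94% to 4.44% of the windows, at ratios of 1.09 to 1.26. The null carcasses had 30 and 46 peaks at ratios of 0.725 and 0.909, and the null liver 33 peaks at a ratio of 1.62. The hearts thus stood above every other null library on both scales, while the ratios of hindbrain and carcass lay near 1. A tissue is a mixture, so that more cells with the mark cannot be told apart from more mark in each cell.

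**Figure D1:**
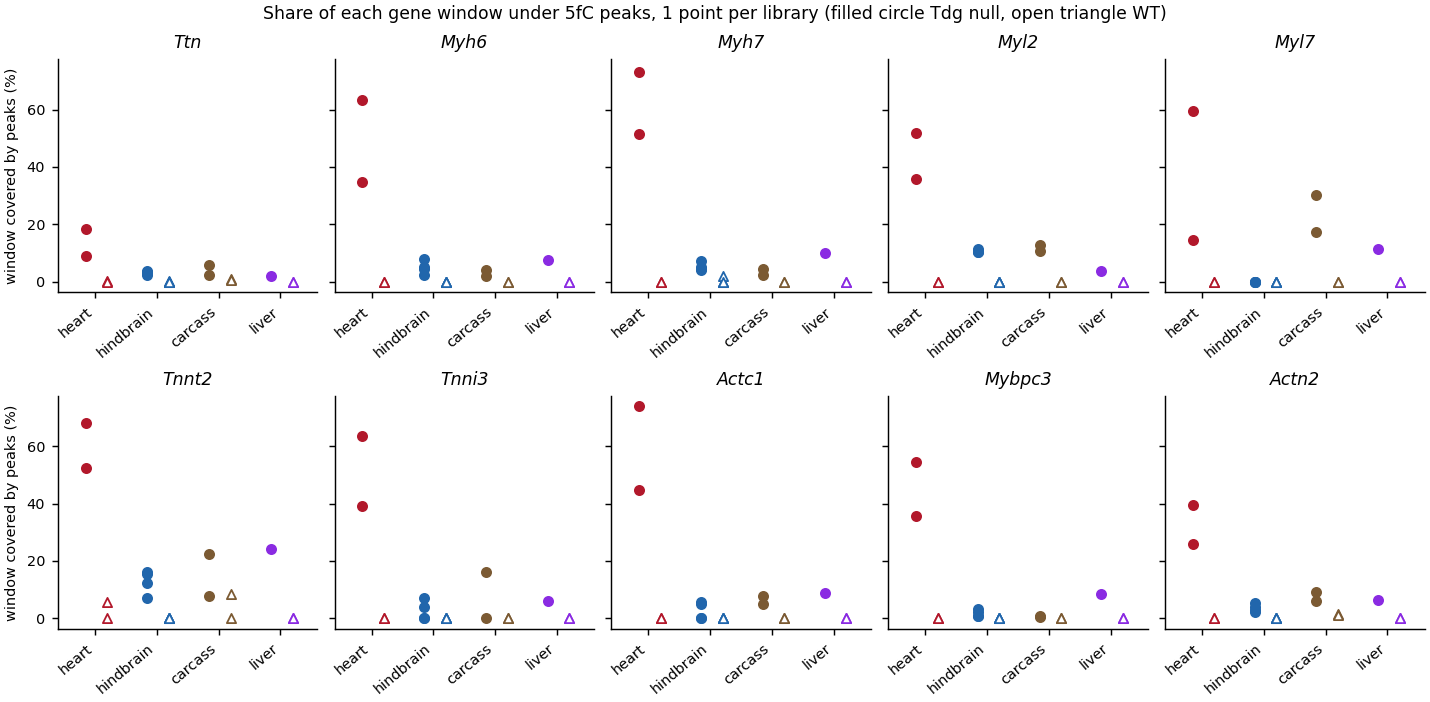
Percent of each gene window under 5fC peaks (vertical axis) in heart, hindbrain, carcass and liver; each point is 1 library, filled circles *Tdg* null and open triangles WT. The 2 null hearts lie above all other libraries in 9 of 10 panels, the exception being *Myl7*, where both null carcasses, at 30.3% and 17.3%, lie above the null heart of pair b at 14.6%.

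The heavy chains of cardiac myosin are the motors of the thick filament. *Myh7* (chr14:55589525-55613471, minus strand) encodes the slow beta chain, and peaks covered 73.2% and 51.4% of its window in the null hearts of pair a and pair b. In the null hindbrains of litters A, O, Q and Z the values were 5.26%, 4.19%, 4.55% and 7.41%, in the null carcasses 4.55% and 2.40%, and in the null liver 10.02%. *Myh6* (chr14:55560758-55585764, minus strand) encodes the fast alpha chain and lies downstream of *Myh7*; the windows of the pair share 240 bases. Its coverage was 63.5% and 34.8% in the null hearts, 2.41%, 4.48%, 7.93% and 5.17% in the null hindbrains, 4.14% and 2.07% in the null carcasses and 7.58% in the null liver. The highest null library outside the heart, the liver in *Myh7* and the hindbrain of litter Q in *Myh6*, lay far under the lower heart in both genes.

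The longest stretch covered in both null hearts, over all 10 genes, lay in the 5′ part of *Myh6*. It ran for 6200 bases, chr14:55578501-55584700, from exon 2 to exon 14 (exons are numbered along the longest coding transcript). Of these bases 4800 were covered in no other null library, and 400 bases around exon 12, chr14:55579601-55580000, were covered in all 9 null libraries. Next to that shared piece, exon 13 held the 200 bases richest in CpG within *Myh6* that were covered in both null hearts and in no other null library, with 9 CpG. They are shown because 5fC derives from methylated cytosine, which lies mostly in CpG; capitals mark CpG in this and the other genomic sequences, all read 5′ to 3′ on the strand of the gene in NCBIM37.
*Myh6* exon 13, chr14:55579107-55579306, minus strand: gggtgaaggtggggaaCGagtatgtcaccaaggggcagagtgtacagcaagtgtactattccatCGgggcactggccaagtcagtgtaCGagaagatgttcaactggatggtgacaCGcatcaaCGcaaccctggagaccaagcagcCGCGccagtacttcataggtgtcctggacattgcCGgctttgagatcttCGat

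**Figure D2:**
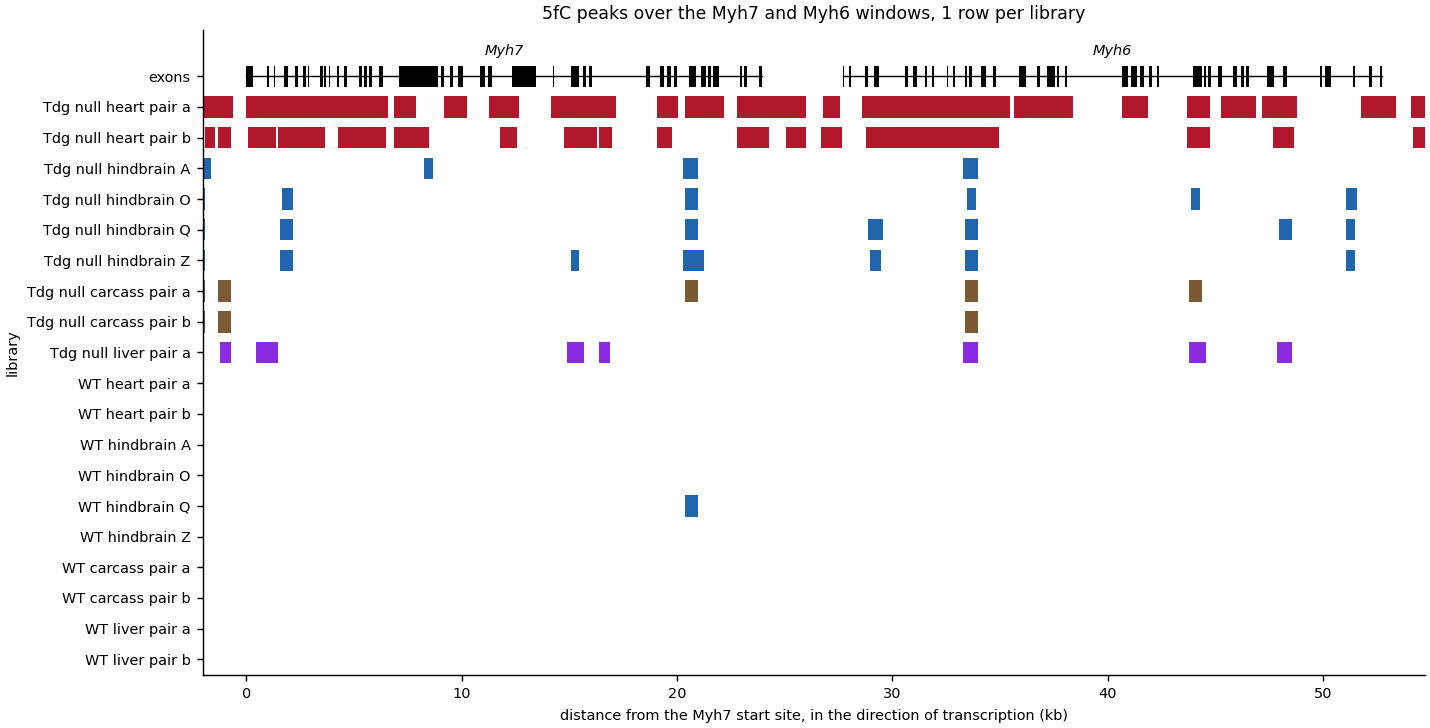
Peaks over the *Myh7* and *Myh6* windows by library (rows), against the distance in kb from the *Myh7* start site in the direction of transcription (horizontal axis); boxes in the top row are exons and coloured blocks are peaks. Peaks of both null hearts lie over much of *Myh7* and the 5′ part of *Myh6*, whereas the hindbrain, carcass and liver rows hold a few narrow peaks and the WT rows hold 1, in the hindbrain of litter Q.

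Each heavy chain gene carries a miRNA in an intron, and these related miRNAs are known regulators of myosin gene expression. The *Mir208a* hairpin (chr14:55567897-55567979, in *Myh6*) lay under a peak of 1 library, the null heart of pair a, and the *Mir208b* hairpin (chr14:55594537-55594613, in *Myh7*) under none. The mature 3p forms, shown because they share 1 seed and differ only outside it, are given from RefSeq in RNA letters with the seed, bases 2 to 8, in capitals.
mmu-miR-208a-3p: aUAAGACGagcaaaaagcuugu
mmu-miR-208b-3p: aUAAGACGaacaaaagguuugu

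*Myl2* (chr5:122550960-122563481, plus strand) encodes the regulatory light chain of the ventricle. Its window was covered over 51.7% and 36.0% in the null hearts, 10.9% and 12.7% in the null carcasses and 3.63% in the null liver. In the null hindbrains 1900, 1700, 1800 and 1700 of its 16522 bases were covered, a mean of 10.7% ± 0.579 (SD, n = 4). The hindbrains thus varied little among themselves, and at ratios of 2.80 to 3.85 they covered this gene more than their genome share. *Myl7* (chr11:5796640-5798785, minus strand), the light chain of the atrium, gave another order. Its window had no covered base in any of the 4 null hindbrains, 59.3% and 14.6% in the null hearts, 30.3% and 17.3% in the null carcasses and 11.4% in the null liver. The heart of pair b had a single peak of 900 bases there, which lay in the downstream flank, so that no base of the *Myl7* gene itself was covered in both null hearts.

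Among the thin filament genes, *Actc1* (chr2:113873018-113879284, minus strand) encodes cardiac alpha-actin. Coverage was 73.9% and 44.8% in the null hearts, 5.84%, 0%, 4.87% and 0% in the null hindbrains, 4.87% and 7.79% in the null carcasses and 8.77% in the null liver. Both hearts covered 83.9% of its coding bases, the highest coding share among the 10 genes. *Tnni3* (chr7:4469907-4475831, minus strand) encodes the inhibitory cardiac troponin I. It was covered over 63.4% and 39.3% in the null hearts, 0%, 0%, 7.05% and 4.03% in the null hindbrains, 0% and 16.1% in the null carcasses and 6.05% in the null liver. *Tnnt2* (chr1:137737452-137748837, plus strand) encodes cardiac troponin T, which ties the troponin complex to tropomyosin. Here coverage was 67.9% and 52.3% in the null hearts, 15.6%, 7.15%, 16.2% and 12.3% in the null hindbrains, 7.80% and 22.4% in the null carcasses and 24.0% in the null liver, the highest value of the liver over the 10 genes. For *Tnni3* and *Actc1* 2 of 4 hindbrains had no peak, whereas *Tnnt2* was covered in every null library.

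In *Tnni3* the null hearts shared a stretch of 2800 bases, chr7:4472901-4475700, that no other null library touched. It holds 77 CpG and runs from exon 4 past exon 1 of the longest coding transcript, into the gene model 6030429G01Rik (chr7:4474535-4484055, minus strand), which overlaps *Tnni3*.

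In the other thick filament gene and at the Z disc the hearts again lay above every other null library. *Mybpc3* (chr2:90958301-90976673, plus strand) encodes cardiac myosin-binding protein C, a modulator of cross-bridge cycling, and was covered over 54.4% and 35.6% in the null hearts, 0.894%, 2.23%, 3.13% and 0.894% in the null hindbrains, 0.447% and 0.894% in the null carcasses and 8.37% in the null liver. *Actn2* (chr13:12361693-12433027, minus strand) encodes the alpha-actinin that cross-links actin at the Z disc. It was covered over 39.6% and 25.8% in the null hearts, 5.32%, 2.93%, 3.85% and 2.40% in the null hindbrains, 6.12% and 9.30% in the null carcasses and 6.37% in the null liver. *Mybpc3* had the lowest hindbrain mean of the members with any hindbrain peak, 1.79% ± 1.09 (SD, n = 4). Among the 9 members with such bases, the 200 bases with the most CpG that were covered in both null hearts and in no other null library lay in *Actn2*, at and around exon 8, with 16 CpG.
*Actn2* exon 8 and introns, chr13:12388686-12388885, minus strand: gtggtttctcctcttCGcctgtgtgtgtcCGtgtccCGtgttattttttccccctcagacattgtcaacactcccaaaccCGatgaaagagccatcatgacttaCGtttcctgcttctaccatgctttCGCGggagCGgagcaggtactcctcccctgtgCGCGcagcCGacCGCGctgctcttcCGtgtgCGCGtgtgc

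*Ttn* (chr2:76542037-76820604, minus strand) encodes titin, the giant protein that spans from Z disc to M line and acts as a molecular spring. It is by far the longest member, with 278568 bases and 347 exons in the longest coding transcript, and it had the lowest share covered in heart. The null hearts had 64 and 40 peaks, covering 18.5% and 8.92% of the window at ratios of 2.29 and 2.45. The null hindbrains had 13 to 18 peaks and covered 3.08%, 2.34%, 3.29% and 3.65%, the null carcasses 2.41% and 5.84% and the null liver 2.16%. In bases this was still the largest contribution, since 52368 of the 169469 bases covered in the heart of pair a were in *Ttn*. Stretches covered in both null hearts touched 45 of the 347 exons. The 200 bases with the most CpG that were covered in both null hearts and in no other null library lay in exon 336 and are coding throughout, with 13 CpG.
*Ttn* exon 336, chr2:76555280-76555479, minus strand: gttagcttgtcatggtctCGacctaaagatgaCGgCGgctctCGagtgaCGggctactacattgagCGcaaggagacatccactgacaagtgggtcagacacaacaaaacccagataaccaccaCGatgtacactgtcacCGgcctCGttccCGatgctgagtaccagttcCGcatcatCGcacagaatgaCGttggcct

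**Figure D3:**
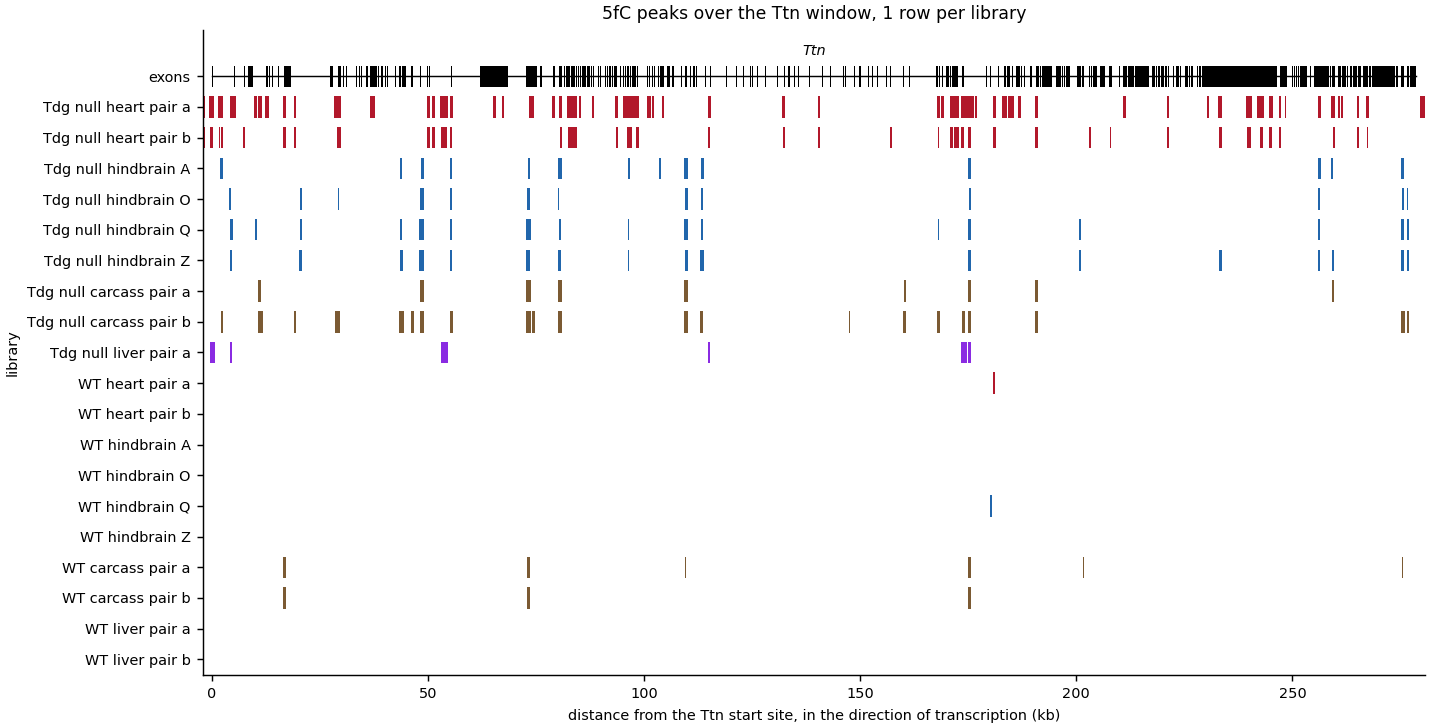
Peaks over the *Ttn* window by library (rows), against the distance in kb from the *Ttn* start site in the direction of transcription (horizontal axis); boxes in the top row are exons and coloured blocks are peaks. Heart peaks come in clusters, several of them in regions where the other null rows hold no peak, and 1 place, around 175404 bases from the start site, is covered in all 9 null libraries.

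The relative coverage of the null hearts was then compared with the other null tissues. For each gene and library the log2 of covered bases over the bases expected from the library's genome share was taken, with 100 bases added to both, and all genes with a covered base were fitted together with limma. In heart against hindbrain 9 of 10 members passed the test at an adjusted p under 0.05 and were higher in heart, where 14.6% of all 26571 genes were; none was lower, where 9.28% of all genes were. The median difference of the members was 2.71 on the log2 scale, beside 0.18 over all genes tested. Hearts and hindbrains came from different litters, so tissue and litter cannot be told apart in this comparison. Among the members that passed, the largest difference was 3.98 ± 0.85 (SE) for *Actc1* (limma adjusted p = 0.0149). *Mybpc3* followed with 3.81 ± 0.53 (limma adjusted p = 0.00263) and *Myl7* with 3.75 ± 0.42 (limma adjusted p = 0.00123). *Myl7* had no covered base in any null hindbrain, so its hindbrain values come from the added 100 bases and the genome share alone. The SE and adjusted p of *Myl7* thus hold no measured spread of hindbrain coverage. *Tnni3* differed by 3.75 ± 1.19 but missed the threshold (limma adjusted p = 0.0581). It passed without flanks (limma adjusted p = 0.0310), with a flank of 10000 bases (0.00565), with peaks of at least 600 bp (0.0422) and with 500 bases added (0.00636), as well as without the hindbrain of litter Q (0.0485). The smallest differences were 1.33 ± 0.22 for *Myl2* and 1.37 ± 0.31 for *Ttn*. *Myh6*, *Myh7*, *Actn2* and *Tnnt2* lay between, at 2.60 ± 0.53, 2.81 ± 0.39, 2.47 ± 0.35 and 1.61 ± 0.36. The call of *Myl7* ended when the flanks were left out, at a difference of 1.26 (limma adjusted p = 0.374), and at a flank of 10000 bases, at 0.64 (limma adjusted p = 0.0831). With 2 hearts, the count rested in part on the heart of pair b: without it 5 members passed, and *Ttn*, *Myh6*, *Tnnt2* and *Actc1* no longer did (limma adjusted p = 0.0617 to 0.115), at differences of 1.28 to 3.85. Without the heart of pair a, *Actc1* did not pass (limma adjusted p = 0.0612).

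Against the null carcass, which came from the same embryos, 7 of 10 members passed and were higher in heart, where 15.7% of all genes were. None was lower, where 6.73% of all genes were. Both shares of all genes moved strongly when a single library was left out. *Mybpc3* differed most, by 5.55 ± 0.61 (limma adjusted p = 0.00156), followed by *Myh7* with 4.28 ± 0.45 and *Myh6* with 4.06 ± 0.61. *Actc1* (3.22 ± 0.98, limma adjusted p = 0.0540), *Tnni3* (3.80 ± 1.37, limma adjusted p = 0.0884) and *Myl7* (0.52 ± 0.49, limma adjusted p = 0.454) did not pass, and *Myl7* came to -0.047 without the carcass of pair b. *Actc1* and *Tnni3* did with a flank of 10000 bases (limma adjusted p = 0.00450 and 0.00763) and with 500 bases added (0.00246 and 0.0134), *Actc1* also with peaks of at least 600 bp (0.0250) and *Tnni3* without the carcass of pair b (0.0351). The median of the members was 2.76, beside 0.35 over all genes tested. Both null hearts lay above all 7 other null libraries in relative coverage for 9 of 10 members, all but *Myl7*, where 17.4% of all genes showed this order. The difference between heart and the single null liver ranged from 0.55 for *Tnnt2* to 2.63 for *Myl2* and has no replicate check.

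**Figure D4:**
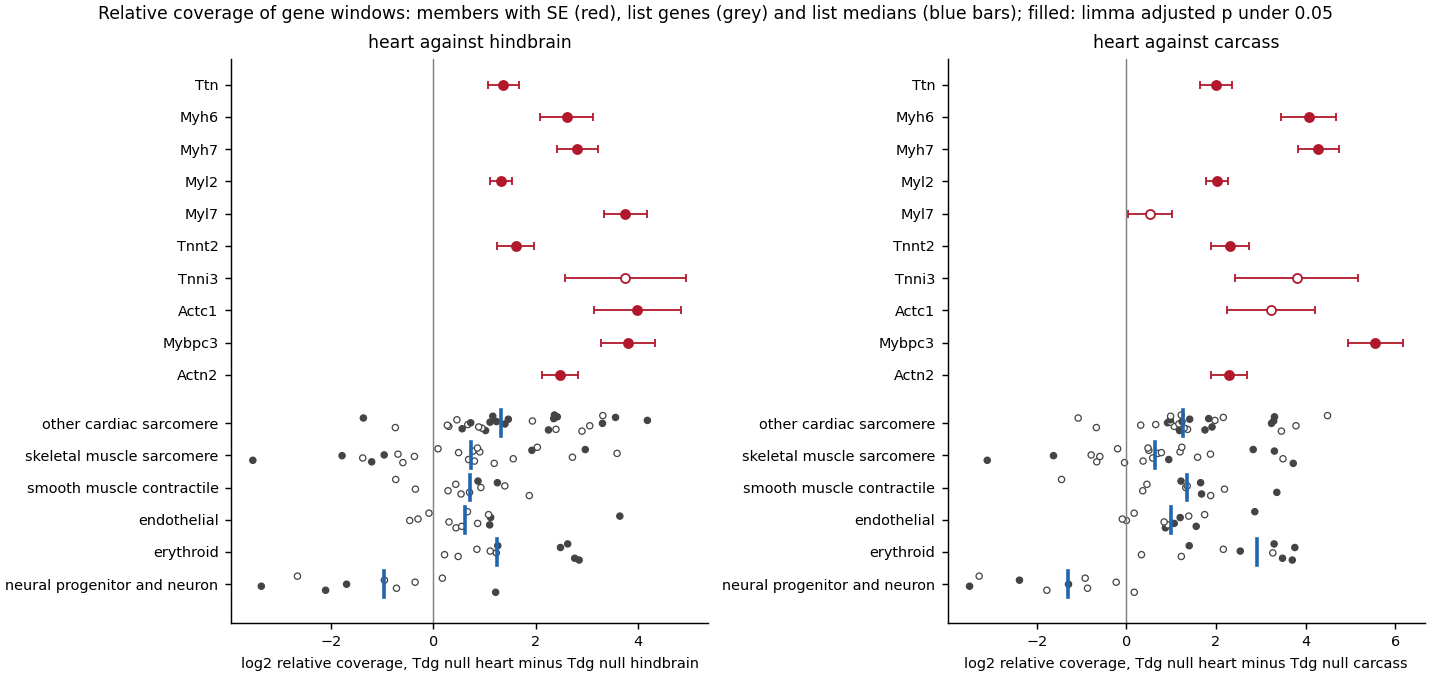
Difference in log2 relative coverage between *Tdg* null heart and *Tdg* null hindbrain (left) or carcass (right); red points are the 10 members with their SE, grey points are the genes of the other lists, blue bars are list medians, and filled points passed the limma test at an adjusted p under 0.05. All 10 members lie above 0 in both panels, from 1.33 to 3.98 against hindbrain and from 0.52 to 5.55 against carcass, where the lowest, *Myl7*, turned to -0.047 without the carcass of pair b.

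Further lists of genes show how far this reached. Of 28 other cardiac sarcomere genes, 15 passed and were higher in heart than in hindbrain and 1 was lower, with a median of 1.32. The largest were *Cryab*, a chaperone of the Z disc and desmin, with 4.18 ± 0.78, *Smpx*, a small muscle protein, with 3.56 ± 0.70, and *Ldb3*, a Z-disc adaptor, with 3.30 ± 0.64. *Xirp2*, an actin-binding protein of striated muscle, was lower by 1.37 on the log2 scale (−1.37 ± 0.32). Against carcass 12 of the 28 were higher and none lower. Of 22 skeletal muscle sarcomere genes, 2 were higher than in hindbrain, *Myot* (2.97 ± 0.50) and *Myoz3* (1.92 ± 0.53), and 4 were lower, led by the perinatal myosin heavy chain *Myh8* (−3.53 ± 0.62), with a median of 0.73. Against carcass 4 of the 22 were higher and 2 lower. Of 11 smooth muscle genes 2 were higher, *Myocd*, a cofactor of serum response factor, with 1.25 ± 0.22 and *Synpo2* with 0.87 ± 0.20, and against carcass 4 were higher. These counts stand beside the 14.6% and 15.7% of all genes that were higher and the 9.28% and 6.73% that were lower against hindbrain and carcass.

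Genes of other cell types were placed beside these. The embryonic heart holds endocardium and blood, and 3 of 12 endothelial genes, *Esam* (3.64 ± 0.50), *Eng* (1.12 ± 0.21) and *Kdr* (1.10 ± 0.28), and 5 of 10 erythroid genes were higher in heart than in hindbrain. The erythroid genes were led by *Gata1* (2.85 ± 0.36), *Klf1* (2.76 ± 0.54) and *Hbb-bh1* (2.62 ± 0.46). Against carcass 5 of 12 endothelial and 6 of 10 erythroid genes were higher, with medians of 0.996 and 2.90. Over all windows of the erythroid list the ratio to the genome share was 2.06 to 3.13 in the null hearts, 0.999 to 1.12 in the hindbrains, 0.781 to 0.902 in the carcasses and 2.39 in the liver, and 2 of its 12 genes, *Alas2* and *Tal1*, had no covered base in any null library. The endothelial list had ratios of 2.98 to 3.23 in the hearts, 1.80 to 2.16 in the hindbrains, 1.43 to 1.72 in the carcasses and 2.49 in the liver. The ratios of the members were 4.23 and 5.56 in the hearts and 1.62 in the liver. The part of blood and endothelial cells in the values of the members was not tested. Of 9 neural genes with a covered base, 3 were lower in heart than in hindbrain, led by *Dcx* (−3.36 ± 0.77), and 1, *Nes* (1.22 ± 0.34), was higher. Of all genes, 14.6% were higher and 9.28% lower in heart than in hindbrain, and 15.7% were higher than in carcass.

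Over the 9 null libraries, the windows of at least 10000 bases whose relative coverage was most like the mean of the members belonged to *Eps8*, *Pacsin2*, *Cpeb3*, *Sipa1l1* and *Rabepk*, with Pearson r of 0.987 to 0.983 among 16451 genes searched. The points share their libraries, and the likeness is a description. The mean log2 relative coverage of these genes in the null hearts was 0.88 to 2.31, beside 1.24 for *Ttn* to 3.41 for *Myh7* among the members.

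The genotypes were compared next, to see whether the peaks depend on the loss of TDG. The WT heart of pair a had 1 peak of 400 bases in the sarcomere windows, in an intron of *Ttn*, and that of pair b 1 peak of 900 bases at *Tnnt2*. These WT libraries cover 0.133% and 0.120% of the genome, and the ratios of the windows to that share were 0.608 and 1.51. All 10 members had more covered bases in both null hearts than in both WT hearts, where 73.1% of all genes with a covered base did. In carcass this held for 8 of 10, where 76% of all genes did; in *Tnni3* and *Tnnt2* the genotypes overlapped. The WT carcass of pair a had 10 peaks in the windows, in *Ttn*, *Tnnt2* and *Actn2*, and that of pair b 5, in *Ttn* and *Actn2*. Neither WT liver had any.

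In hindbrain, the tissue with 4 libraries of each genotype, 3 WT libraries had no peak in any of the 10 windows, and the WT hindbrain of litter Q had 1 peak of 600 bases in *Myh7* and 2 in *Ttn*. *Ttn*, *Myh6*, *Myh7*, *Myl2*, *Tnnt2*, *Mybpc3* and *Actn2* were covered more in all 4 null than in all 4 WT hindbrains. Each passed the exact permutation test, run on both sides (p = 0.0286, which is the least that 4 against 4 can give, adjusted p = 0.0468). This made 7 of the 9 members with a covered base, where 61% of all genes passed, so that most genes behaved as these members did. The differences ranged from 1.79 percentage points for *Mybpc3* to 12.8 for *Tnnt2*. *Tnni3* and *Actc1* differed by 2.77 and 2.68 percentage points and did not pass (exact permutation p = 0.429). With the litters as pairs no gene could pass, since 4 pairs allow no p below 0.125 in an exact sign-flip test. Relative to the library's own total no gene passed either, on a scale where a WT library with 0 covered bases is placed by the added 100 bases alone. Leaving out any 1 hindbrain, or peaks shorter than 600 bp, also left 0 genes. Over all 6 litters, each given the mean difference of its tissues, the same 7 members were higher in null in 6 of 6 litters (exact sign-flip permutation p = 0.03125, the least that 6 litters can give, adjusted p = 0.0626). Thus 0 members passed, where 0% of all genes did, while 13513 of 27052 genes were under 0.05 at the unadjusted p. With a flank of 10000 bp all 10 members and 20568 of 32015 genes passed this test. Genes at the least p share the same adjusted p, which depends on how many genes reach it, so they pass or fail together. This holds for the hindbrain permutation test as well.

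The 2 WT heart peaks lay where the null hearts were also covered. The *Ttn* peak, chr2:76639401-76639800, was covered in full in the null littermate heart, was touched by both null hearts and by no other null library, and holds 5 CpG. The *Tnnt2* peak, chr1:137737301-137738200, spans the annotated first exon and was covered in full in the null littermate heart, but was also touched by 5 of the other 7 null libraries and by 1 other WT library, the carcass of pair a. The part of the *Ttn* peak with the most CpG is shown because it is the only WT heart sequence within these genes that was not covered in another null tissue.
*Ttn* intron under the WT heart peak, chr2:76639471-76639670, minus strand: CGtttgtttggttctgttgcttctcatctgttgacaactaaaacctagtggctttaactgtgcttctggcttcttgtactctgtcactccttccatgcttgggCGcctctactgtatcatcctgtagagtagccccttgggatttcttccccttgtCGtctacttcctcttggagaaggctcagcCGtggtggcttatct

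Over all windows together, exons and introns were covered to similar shares in the null hearts, but within most genes exons were covered more. Exons made up 28.2% and 26.8% of the covered bases, beside 29.6% of the window bases, and the covered share of exon bases was 1.02 and 0.94 times that of intron bases. In the null hindbrains this ratio was 1.053 to 1.53, in the null carcasses 1.12 and 1.13, and in the null liver 0.584. Of the 154 and 112 heart peaks, 102 and 70 touched an exon. The flanks were covered over 58.6% and 33.3% in the null hearts, beside 32.6% and 18.3% of exon bases and 31.9% and 19.5% of intron bases. The flanks weigh each gene alike, whereas most exon bases, 116828 of 146873, are those of *Ttn*, the least covered gene. Gene by gene, the covered share of exons was above that of introns in 8 of 10 members in the heart of pair a and in 8 of 9 with a covered base in the heart of pair b. In *Actc1* it was 92.2% against 70.4% and 72.0% against 37.0%, in *Myh6* 83.6% against 57.5% and 40.4% against 30.7%, and in *Ttn* 23.8% against 13.8% and 11.3% against 6.86%. *Myl2* had the opposite order in both hearts. How many of all genes have higher exon coverage is not given, so this is not shown to be particular to the members. The exon share moved with the definition: by peak midpoints it averaged 36.3% over the hearts, and with exons of the longest coding transcript 24.5%, beside 27.5% here.

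In the null hearts coverage was lower beyond 2 kb from the genes. The median ratio of these hearts over the 10 members was 7.65 and 10.7 in the gene body, 7.98 and 8.99 within 2 kb, 4.0005 and 6.61 from 2 to 10 kb, and 2.08 and 2.12 from 10 to 50 kb. In the null hindbrains the gene body stood at 0.771 to 1.84, the 2 kb beside it at 0 to 0.242, the ring from 2 to 10 kb at 2.02 to 2.34, above the gene body in each hindbrain, and the ring from 10 to 50 kb at 1.17 to 1.74. Heart and hindbrain thus lay closer together beyond 10 kb from these genes than within them.

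**Figure D5:**
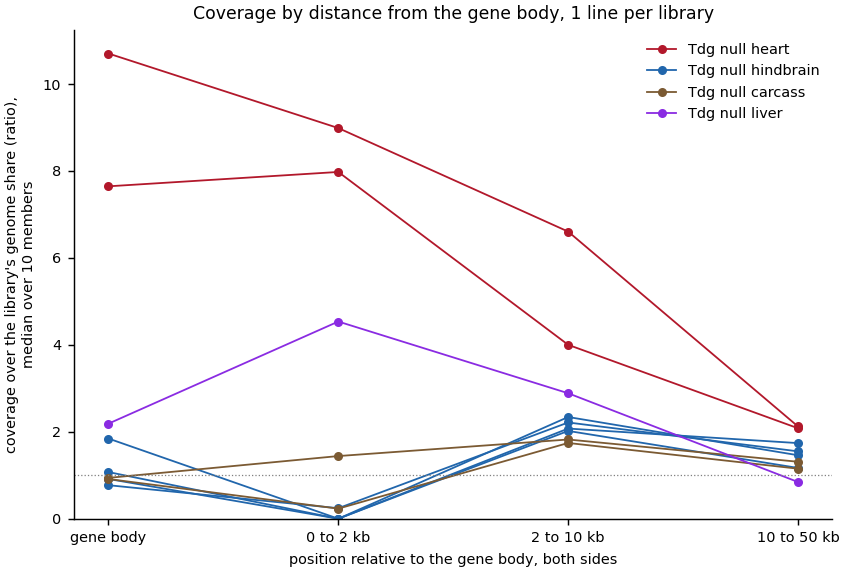
Median over the 10 members of the ratio of covered share to the library's genome share (vertical axis), in the gene body and in rings at growing distance on both sides (horizontal axis); each line is 1 *Tdg* null library and the dotted line marks a ratio of 1. The 2 heart lines start at 7.65 and 10.7 and end at 2.08 and 2.12, where the other null libraries lie between 0.845 and 1.74.

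The peaks of the null heart of pair b lay nearly all within those of pair a. Of the bases covered in the heart of pair b, 97.1% were also covered in the heart of pair a, whereas 57.5% of the bases of pair a were covered in pair b, from 24.7% in *Myl7* to 74.2% in *Tnnt2*. Over the whole genome, peaks covered 8.09% in the null heart of pair a and 3.64% in that of pair b. No genome-wide value of the overlap is given here. Together the null hearts shared 103 stretches with a median length of 700 bases and a total of 97550 bases. Of these bases 64.7% (63128) were covered in no other null library, and 51 of the 103 stretches were touched by none. No such share is given over all genes, so it is not shown to be particular to these genes. By gene this heart-only part of the shared bases ranged from 37.4% in *Tnnt2* to 78.9% in *Tnni3*, with 0% in *Myl7*, whose shared bases were all touched by another null library. Conversely 76.2% of the bases covered in the other null tissues lay under a peak of a null heart as well. Only 1800 bases were covered in all 9 null libraries, in 1 stretch each of *Ttn*, *Myh6*, *Tnnt2* and *Actn2*, and each of these stretches includes exon bases.

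Bases under peaks of both null hearts were richer in CpG than bases covered in neither in 9 of 10 members. The difference was widest in *Tnni3*, with 26.8 CpG per kb against 9.35, and was also clear in *Tnnt2* (17.2 against 6.47) and *Myh7* (18.7 against 7.83). *Ttn* had 22.3 against 12.8. In *Myl7* the order was the other way, 13.3 against 20, over its 900 shared bases. The GC content was also higher under the peaks in 9 of 10 members, such as 55.4% against 48.9% in *Tnni3* and 52.0% against 49.7% in *Tnnt2*. Members share libraries, and these values are given as a description. No such counts are given over all genes, so the order is not shown to be particular to these members.

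At the start sites the members were not alike. RefSeq promoter windows, 250 bases before to 50 after a start, were placed in NCBIM37 by exact match, and all 13 windows of the 10 members were found. Those of *Ttn*, *Mybpc3* and *Tnni3* were covered over all 300 bases in both null hearts, that of *Tnni3* in no other null library. Those of *Myh6* and *Actn2* had no covered base in any library, although the *Actn2* window holds 19 CpG, the most of the 13. The *Actc1* promoter was covered in the null hindbrains of litters A and Q (300 and 239 bases) and in neither heart. A *Tnnt2* promoter that lies upstream of the annotated start and outside the window was covered over 300 bases in all 4 null hindbrains and in the null carcass of pair b, beside 40 bases in 1 heart. The starts of these genes were thus covered in heart for some members and not for others. The *Ttn* promoter is shown because it was covered in both null hearts and in the null liver but in no hindbrain or carcass.
*Ttn*, the 250 bases before its start, chr2:76820605-76820854, minus strand: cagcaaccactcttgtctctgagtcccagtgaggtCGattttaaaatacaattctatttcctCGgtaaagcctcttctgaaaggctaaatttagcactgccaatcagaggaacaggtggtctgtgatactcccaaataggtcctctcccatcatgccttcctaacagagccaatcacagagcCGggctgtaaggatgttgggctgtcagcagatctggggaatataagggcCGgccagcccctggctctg

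The member promoters held a median of 5 CpG, beside 7 over 32851 RefSeq promoters of the same length. On either strand, the letters CATTCC, the core of the element bound by TEAD factors in muscle genes, were found in 5 of 13 member promoters (*Myh6*, *Myh7*, *Myl7*, *Tnnt2*, *Ttn*) and in 14.7% of all promoters. The letters AGATAA, which GATA factors can bind, were found in 2 of 13 (*Myl2*, *Tnnt2*) and in 11.2% of all. The CArG box of serum response factor was found in 2 of 13 (*Actc1*, *Myl7*) and in 1.63% of all. These matches describe the letters alone.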

How the data were processed

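The data are 5fC pull-down libraries of E11.5 mouse tissues. Upstream steps by the authors were Trim Galore, Bowtie2 on NCBIM37 (mm9) and, per library, MACS in SeqMonk. The MACS settings were 200 bp (fragments) and 1e-05 (p-value limit). The deposited peak files used here hold a unit other than counts: the start and end position of every peak, on a grid of 100 bp, without height or score. Reads were not used here, so depth is not known, and a library with more reads or a stronger pull-down can have more peaks.

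Covered bases were the union of peaks per library. Genes and exons were those of GENCODE vM1 on NCBIM37, over 21 chromosomes. Genome shares were taken over the 2558509480 bases that are not gaps. Hindbrain genotypes were compared by exact permutation tests, all litters by exact sign-flip tests and null tissues by limma on log2 relative coverage (100 bases added), each fitted over all genes with a covered base and adjusted by Benjamini-Hochberg. The permutation and limma procedures were tested on simulated data. Python 3.11.15, numpy 2.4.6, pandas 2.3.3, R 4.3.3 and limma 3.58.1 were used.

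WT and *Tdg* null embryos were paired by the litter field of the labels (A, O, Q, Z, pair a and pair b). Deviations of hindbrain littermates from their group means correlated between -0.384 and 0.312 over 22505 genes. Libraries of 1 embryo had a consensus correlation of -0.00604 in the limma fit.

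The members and lists were chosen with earlier results of these data known. All members were named. From each other list at most the 3 genes past the threshold with the largest positive and the 1 with the largest negative difference between heart and hindbrain were named, and the 5 genes most like the mean of the members. Of the listed symbols, *Tnnc1*, *Nrap*, *Klhl41* and *Klhl40* had no single match in the annotation and were left out. Alternatives were other flanks, peaks of at least 600 bp, merging of peaks closer than 200 bp, a pseudocount of 500 bases, a filter on covered bases, blocks for litter or embryo, and leaving out each library. The gene models of *Tnnt2* and *Myl2* start downstream of RefSeq starts, so part of these genes lies outside their windows.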

Additional observations from a re-analysis of the deposited data

Results flagged for a closer look

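In the WT hindbrains 1 library stood far from the other 3. The WT hindbrain of litter Q had covered bases in *Ttn* (0.142% of the window), *Myh7* (2.15%) and over all members together (0.202%), whereas litters A, O and Z had none, so the gap over the range was 1 in each of these 3 cases. With the other 3 at 0 it is 1 whatever the size of the value, and the third case is the sum of the others. That library also holds 21606 peaks over the genome, beside 1563 to 8989 in the other WT hindbrains, and the part of the larger peak number in these values was not tested. The *Myh7* peak, of 600 bases at exon 35, was covered in full in the *Tdg* null littermate and touched by 5 of the 7 null libraries outside the heart and by 1 null heart. The 2 *Ttn* peaks, at exon 225, were touched by no other library. 22 groups were looked at, 13 of them with any spread. Where all values but 1 are 0 a group is marked whatever the value, so no rate of chance marks is given.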

How the results depend on the processing

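Every member kept a positive heart against hindbrain difference under every alternative. 9 members passed in heart against hindbrain; leaving out a library gave 5 to 10 members (3070 to 3785 genes higher and 1756 to 3239 lower), and other settings 9 or 10. 7 members passed against carcass; leaving out a library gave 7 or 8 (2660 to 3724 genes higher, 1023 to 2995 lower), and other settings 7 to 9. Among genes with a mean of at least 500 covered bases 2741 were higher against carcass, beside 4163, with fewer genes tested. *Myl7* ranged from -0.047 to 1.10 against carcass, the former without the carcass of pair b. The lowest counts of genes against carcass came without the carcass of pair a, 1106 genes were lower without the carcass of pair b, and 2995 without the heart of pair a, beside 1787. The embryo as a replicate block gave 3869 genes higher and 2467 lower against hindbrain and changed no call of a member. The hindbrain genotype count of 7 members and 13732 genes fell to 0 and 0 with peaks of at least 600 bp, on the relative scale, with litters as the replicate block and without any 1 library, where 3 against 4 samples bar a small p-value. On the relative scale *Tnni3*, *Actc1* and *Mybpc3* came to -0.56, -0.57 and -0.46; all 4 WT hindbrains have 0 covered bases there, so these signs come from the added 100 bases and show no lower coverage in null. Over all litters, a flank of 10000 bp gave 10 members and 20568 genes, beside 0. Genes at the least p of either genotype test share the same adjusted p, which depends on how many genes reach it. They pass or fail together, so these counts turn on all genes and not on the members alone. Leaving out a litter gave 0, since 5 litters cannot reach the threshold. The exon share of heart bases was 36.3% by midpoints and 24.5% with longest coding transcripts, beside 27.5%. The cause was not tested for the other changes. Depth, which peak positions do not give, limits all values.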
